A study of Mus musculus with 16 samples.

Results

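The comparison described here is the effect of adding PRMT1 siRNA to p53 siRNA in TGF-beta-treated mouse epicardial cells. Its members are the 4 libraries whose titles name those treatments, of 16 libraries in the series. They are 2 libraries of cells given PRMT1 and p53 siRNA together with TGF-beta (PRMT1-p53_si_TGFB, below the double-siRNA cells), and 2 of cells given p53 siRNA with TGF-beta (p53_si_TGFB, the p53-siRNA cells). Both groups therefore carry p53 siRNA and TGF-beta, and they differ by PRMT1 siRNA. All cells were MEC1, an established mouse epicardial cell line, so the libraries of all groups come from 1 line. Poly(A) RNA was sequenced. The series has 8 groups of 2 libraries, which cover control, PRMT1, p53 and combined siRNA, each with and without TGF-beta. The dose and duration of TGF-beta and the amount of siRNA are not given in the sources used here. The 2 libraries of a group are described as biological replicates, but nothing says that they came from separate cultures. The p-values therefore measure the spread between libraries of a group, estimated over all 8 groups together and not from these 4 libraries alone.

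PRMT1 is the main enzyme that places asymmetric dimethyl marks on arginines of histones, RNA-binding proteins and signalling proteins. p53 is a transcription factor that activates genes of growth arrest, DNA repair and cell death, and it is held in check by its partners Mdm2 and Mdm4. The epicardium is the mesothelial layer covering the heart, and TGF-beta drives epicardial cells to lose epithelial features and to become mesenchymal and matrix-producing. The study's title names PRMT1, Mdm4 and p53 as 1 pathway in epicardial invasion and cell fate. The present comparison addresses what PRMT1 siRNA did to the transcriptome when p53 siRNA was already present.

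The 4 libraries held 26874476 and 30759317 counts in the double-siRNA cells and 22492060 and 22515735 counts in the p53-siRNA cells, within the range of 19617874 to 30759317 in the series. Replicate 2 of the p53-siRNA cells stood apart. Its median deviation for transcripts longer than 5000 bases minus that for transcripts shorter than 1000 bases was -0.69 (log2), where this difference lay between -0.25 and 0.26 in the other 15 libraries. Rn18s-rs5, a ribosomal RNA gene, took 0.886% and 0.910% of counts in the double-siRNA cells, against 3.09% and 5.75% in the p53-siRNA cells; the part of this difference in the results below was not tested. For this reason every test was run with all 16 libraries and with 15 after leaving out that replicate, and a gene is said to have risen or fallen only where it passed an adjusted p of 0.05 with the same sign in both fits. Levels are given in CPM, a gene's count scaled to a common library size with the TMM factors. Epicardial transcription factors were present: Wt1 had 147.9 and 146.9 CPM in the double-siRNA cells, against 147.1 and 118.4 CPM in the p53-siRNA cells. Markers of other cell types were low, with summed levels of 28.7 and 29.4 CPM in the double-siRNA cells and 32.9 and 26.4 CPM in the p53-siRNA cells for 13 endothelial markers, among which Cldn5 and Tie1 were at 0. For 14 haematopoietic markers the sums were 4.47 and 4.27 CPM in the double-siRNA cells and 5.11 and 8.20 CPM in the p53-siRNA cells, with 6 markers at 0. The 14 cardiomyocyte markers summed to 55.4 and 55.3 CPM in the double-siRNA cells and to 82.2 and 141 CPM in the p53-siRNA cells, of which nearly all was Tnnt2; Actc1, Myh6 and Myh7 were at 0.

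The siRNA targets were examined first. Prmt1 (chr7:44975989-44986492, mm10, minus strand) had 67.03 and 62.5 CPM in the double-siRNA cells, against 176.4 and 272.1 CPM in the p53-siRNA cells. It thus stood at 28.9% of the p53-siRNA mean, and at 36.7% of its replicate 1 alone, a log2 change of -1.79 ± 0.17 (SE; edgeR, adjusted p = 1.28e-04) with 16 libraries and of -1.44 with 15. Trp53 (chr11:69580359-69591873, plus strand), the gene that encodes p53 and the target of the other siRNA, had 90.3 and 89.7 CPM in the double-siRNA cells, against 59.4 and 73.6 CPM in the p53-siRNA cells and was higher in both double-siRNA libraries (0.44 ± 0.09, adjusted p = 0.0148; 0.61 with 15 libraries). This call was lost when either double-siRNA library was left out (adjusted p = 0.108 without replicate 1 and 0.119 without replicate 2). Relative to control siRNA with TGF-beta, Trp53 stood at 60.8% in the double-siRNA cells and at 44.9% in the p53-siRNA cells, so both groups retained p53 transcript and the double-siRNA cells retained more. Of 12 tested members of the arginine methyltransferase family, Prmt1 was the one called. Carm1, the family's coactivator methyltransferase, had 119.6 and 118.8 CPM in the double-siRNA cells, against 119.6 and 131.1 CPM in the p53-siRNA cells, and Prmt5, the main symmetric methyltransferase, had 80.6 and 78.3 CPM in the double-siRNA cells, against 65.2 and 83.3 CPM in the p53-siRNA cells.

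Across the transcriptome, 15494 genes were tested. PRMT1 siRNA on top of p53 siRNA changed 986 of them in both fits (6.36%), of which 585 rose (3.78%) and 401 fell (2.59%). The excess of rises depended on the method: DESeq2 called 401 higher and 394 lower in both fits, and edgeR with offsets for transcript length 757 higher and 755 lower. With 16 libraries alone the same alternatives gave more falls, with 943 higher and 1156 lower by DESeq2 and 1118 higher and 1280 lower with length offsets. The 3.78% and 2.59% are the background for the counts of rises and falls in each gene list below. Among these, 172 rose and 40 fell by at least 1 on the log2 scale. The 16-library fit alone called 1573 genes (10.2%), 846 higher (5.46%) and 727 lower (4.69%), and the 15-library fit 1788 (1033 higher, 755 lower). The 2 groups' libraries did not overlap for any of the 986 genes. Of all genes tested, 41.8% had no overlap either, so the lack of overlap of a called gene is no further support for its call. Calls that only the 16-library fit made followed transcript length, with a median of 3129 bases for those higher and 1613.5 for those lower. The genes called in both fits had medians of 2722.5 bases for rises and 2312 for falls, and all tested genes 2052. Rises called in both fits thus still had longer transcripts than falls, with a smaller gap. The count depended on the double-siRNA libraries too: it was 406 without replicate 1 and 359 without replicate 2. A total of 232 rises and 89 falls passed with each of the 4 libraries of these groups left out in turn, and these are called stable below. Leaving out replicate 2 of the p53-siRNA cells is already part of each call, and leaving out replicate 1 removed few calls of named genes. Stable therefore rests mainly on leaving out the double-siRNA libraries. Fitted to these 4 libraries alone, edgeR called 0 genes, and DESeq2, added after seeing the data, called 97. The RNA is bulk, so a smaller share of cells expressing a gene and less RNA per cell cannot be told apart.

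**Figure D1:**
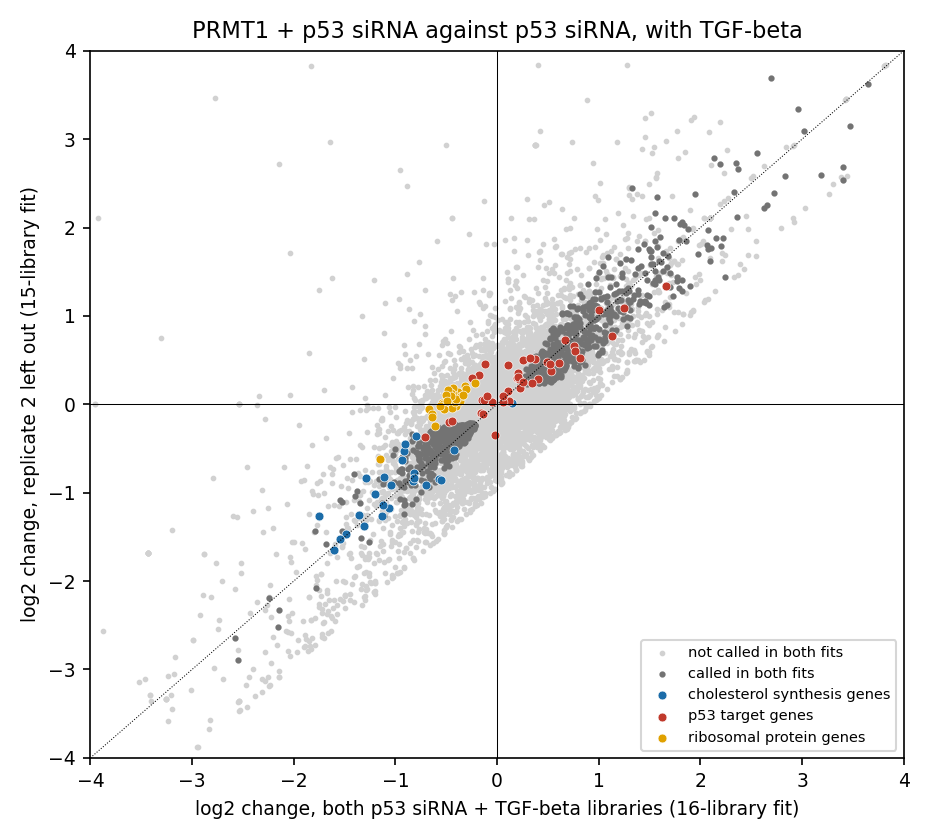
Log2 change in the double-siRNA cells against the p53-siRNA cells (TGF-beta in both) for each tested gene, with both p53-siRNA libraries on the x axis and with replicate 1 alone on the y axis. Dark grey points were called in both fits, coloured points are 3 gene groups, and 135 genes lie beyond the axes; cholesterol synthesis genes (blue) lie low on both axes, while ribosomal protein genes (yellow) have a median of -0.46 on the x axis and 0.04 on the y axis.

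Genes of the cholesterol pathway fell together. Their members encode mainly the enzymes from acetyl-CoA to cholesterol and the regulators of the pathway. In sterol-poor cells the transcription factor SREBP2 (gene Srebf2) activates these genes together with the CCAAT-binding factor NF-Y, and Insig1 retains the SREBP complex in the endoplasmic reticulum when sterol is plentiful. PRMT1 siRNA lowered 21 of the 25 tested members and raised none, against 2.59% of all genes falling. Of the 21 falls, 15 were stable. The median member changed by -1.04 with 16 libraries and by -0.87 with 15, where the medians over all genes were -0.01 and 0.02.

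The enzymes fell at each stage of the pathway. Hmgcs1, the synthase that makes HMG-CoA, had 81.97 and 79.8 CPM in the double-siRNA cells, against 182.6 and 155.3 CPM in the p53-siRNA cells (-1.06 ± 0.09, adjusted p = 5.54e-05). Idi1, the isomerase that supplies dimethylallyl diphosphate, had 21.1 and 21.3 CPM in the double-siRNA cells, against 66.9 and 61.6 CPM in the p53-siRNA cells (-1.60 ± 0.07, adjusted p = 8.65e-07). The 2 double-siRNA libraries were nearly equal for both enzymes, and each lay far below both p53-siRNA libraries. Fdps, farnesyl diphosphate synthase, had 40.3 and 36.9 CPM in the double-siRNA cells, against 93.01 and 166.8 CPM in the p53-siRNA cells (-1.75 ± 0.20, adjusted p = 4.36e-04); its size depended on the deviating library, with a change of -1.26 without it. Squalene epoxidase (Sqle) had 46.6 and 44.4 CPM in the double-siRNA cells, against 101.0 and 96.5 CPM in the p53-siRNA cells (-1.12 ± 0.08, adjusted p = 2.24e-05). In the part of the pathway after lanosterol, Cyp51, the lanosterol demethylase, had 109.3 and 108.7 CPM in the double-siRNA cells, against 302.9 and 309.7 CPM in the p53-siRNA cells (-1.49 ± 0.07, adjusted p = 8.65e-07), and Msmo1, the methylsterol oxidase, had 41.8 and 38.6 CPM in the double-siRNA cells, against 95.96 and 109.6 CPM in the p53-siRNA cells (-1.35 ± 0.09, adjusted p = 2.12e-05).

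The sterol sensor moved with the enzymes. Insig1 had 25.5 and 25.1 CPM in the double-siRNA cells, against 73.1 and 74.2 CPM in the p53-siRNA cells (-1.54 ± 0.10, adjusted p = 1.58e-05). With 15 libraries the changes of the genes named so far in this pathway lay between -1.65 for Idi1 and -1.14 for Sqle. Of the most abundant members that did not pass in both fits, Hsd17b7, a sterol reductase, had 20.6 and 21.3 CPM in the double-siRNA cells, against 37.9 and 24.2 CPM in the p53-siRNA cells (-0.57; adjusted p = 0.0526 with 16 libraries and 2.07e-04 with 15). Stard4, a cholesterol carrier, had 32.6 and 33.2 CPM in the double-siRNA cells, against 59.9 and 36.7 CPM in the p53-siRNA cells (adjusted p = 0.0527 and 6.83e-06). Ggps1, which diverts farnesyl diphosphate to protein prenylation, had 29.5 and 31.2 CPM in the double-siRNA cells, against 30.3 and 24.7 CPM in the p53-siRNA cells, and its groups overlapped.

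**Figure D2:**
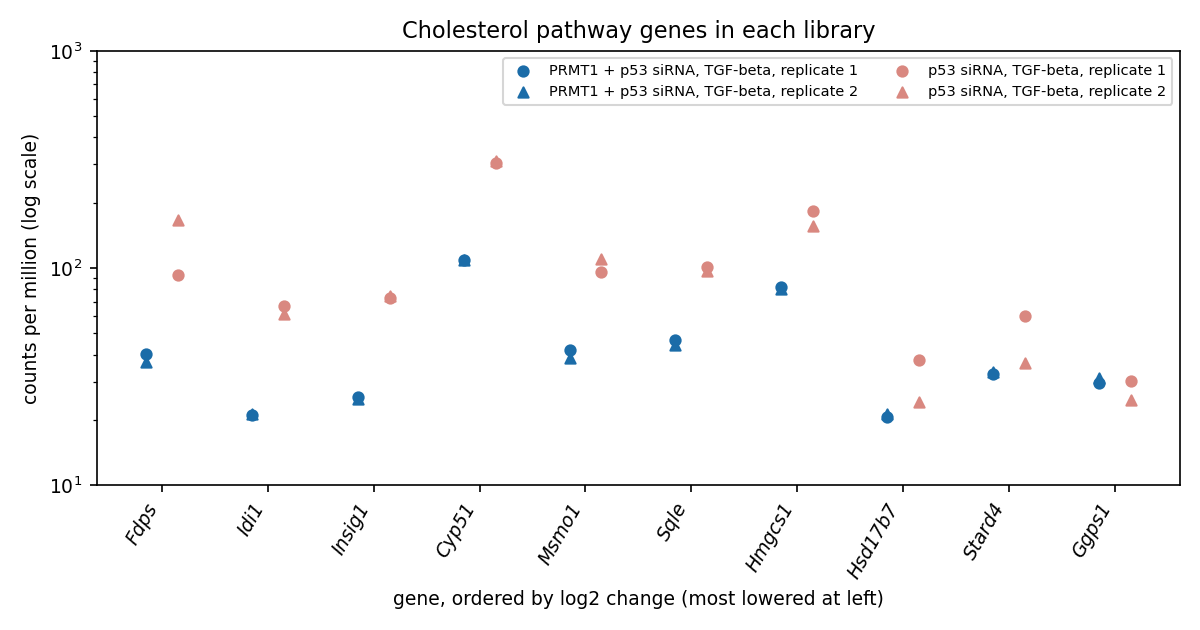
CPM (log scale) of the 10 cholesterol pathway genes described in the text in each of the 4 libraries, double-siRNA cells (blue) left of p53-siRNA cells (pink), circles for replicate 1 and triangles for replicate 2. The blue points lie below both pink points for 9 of the 10 genes, and Ggps1 at the right is the exception.

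Promoters of 4 of these genes are shown because the members fell together; they run from 250 bases before to 50 after the annotated start (RefSeq, GRCm38.p6), with the CCAAT pentamer, the core of the NF-Y site, in capitals wherever it lies on either strand (read as ATTGG on the other). Insig1 is at chr5:28071162-28071461 (plus strand), Hmgcs1 at chr13:119690101-119690400 (plus), Idi1 at chr13:8885356-8885655 (plus) and Cyp51 at chr5:4104648-4104947 (minus).
Insig1: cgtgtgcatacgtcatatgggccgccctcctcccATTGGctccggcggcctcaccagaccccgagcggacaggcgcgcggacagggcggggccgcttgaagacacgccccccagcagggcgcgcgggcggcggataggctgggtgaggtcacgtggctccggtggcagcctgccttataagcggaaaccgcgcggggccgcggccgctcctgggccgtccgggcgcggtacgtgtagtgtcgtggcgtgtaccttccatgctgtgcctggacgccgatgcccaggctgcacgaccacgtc
Hmgcs1: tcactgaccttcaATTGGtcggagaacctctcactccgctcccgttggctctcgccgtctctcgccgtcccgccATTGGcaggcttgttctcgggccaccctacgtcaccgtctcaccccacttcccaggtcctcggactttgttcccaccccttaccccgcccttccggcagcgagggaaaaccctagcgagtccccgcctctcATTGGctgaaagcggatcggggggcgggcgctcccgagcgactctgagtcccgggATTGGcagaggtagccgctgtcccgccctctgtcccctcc
Idi1: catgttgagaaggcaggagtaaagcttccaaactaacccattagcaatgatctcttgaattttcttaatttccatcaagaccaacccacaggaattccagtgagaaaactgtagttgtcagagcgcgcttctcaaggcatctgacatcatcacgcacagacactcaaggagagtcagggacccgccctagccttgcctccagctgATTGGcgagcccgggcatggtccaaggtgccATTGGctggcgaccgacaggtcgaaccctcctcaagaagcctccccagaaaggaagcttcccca
Cyp51: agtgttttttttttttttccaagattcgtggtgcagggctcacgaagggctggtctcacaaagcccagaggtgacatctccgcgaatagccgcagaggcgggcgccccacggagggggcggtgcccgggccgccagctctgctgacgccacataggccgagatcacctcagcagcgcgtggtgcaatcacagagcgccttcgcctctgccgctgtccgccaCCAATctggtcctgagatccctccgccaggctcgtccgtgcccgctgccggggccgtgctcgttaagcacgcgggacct
CCAAT was present on either strand in 17 of the 18 members of the list with a promoter entry, and in 14 of the 15 of these that fell, against 41.1% of 27025 genes. CACCNCAC, part of the classical sterol response element, was present in 3 of the 18 members, against 7.22% of all genes. These matches describe letters in a window of 300 bases and not occupied sites. Hmgcs1 held 4 CCAAT matches, Idi1 2, and Insig1 and Cyp51 1 each.

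Genes of amino acid supply and of the unfolded protein response were called in 1 direction, although most did not pass. Many of them are activated by ATF4, the factor that translational stress induces. PRMT1 siRNA lowered 17 of 40 members and raised none, against 2.59% of all genes falling and 3.78% rising (22 lower and 1 higher with length offsets), and 6 of the 17 falls were stable. The median was -0.41 with 16 libraries and -0.28 with 15. The members that fell with the lowest p-values were enzymes and transporters of amino acids. Asns, which makes asparagine, had 202.9 and 194.4 CPM in the double-siRNA cells, against 292.6 and 390.7 CPM in the p53-siRNA cells (-0.78 ± 0.11, adjusted p = 0.00193). Psat1, of serine synthesis, had 219.1 and 220.4 CPM in the double-siRNA cells, against 303.6 and 357.8 CPM in the p53-siRNA cells (-0.59 ± 0.08, adjusted p = 0.00117), and Gpt2, the mitochondrial alanine transaminase, had 102.3 and 104.1 CPM in the double-siRNA cells, against 153.0 and 153.4 CPM in the p53-siRNA cells (-0.57 ± 0.06, adjusted p = 4.66e-04). Slc7a5, the large neutral amino acid transporter, had 186.4 and 187.5 CPM in the double-siRNA cells, against 276.1 and 266.3 CPM in the p53-siRNA cells (-0.54 ± 0.08, adjusted p = 0.00154). All of these had non-overlapping groups, as every gene called in both fits did. Cth, which makes cysteine, had 13.9 and 12.3 CPM in the double-siRNA cells, against 21.9 and 28.3 CPM in the p53-siRNA cells (-0.93 ± 0.13, adjusted p = 0.00163), and Slc6a9, the glycine transporter, had 21.9 and 26.1 CPM in the double-siRNA cells, against 36.02 and 38.9 CPM in the p53-siRNA cells (-0.64 ± 0.10, adjusted p = 0.00253). Pck2 and Aldh18a1 fell as well (-0.80 and -0.39), but without replicate 2 of the double-siRNA cells their adjusted p-values were 0.0639 and 0.056.

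The regulator and the chaperones of the same list did not pass. Atf4 itself had 374.9 and 345.9 CPM in the double-siRNA cells, against 369.97 and 515.4 CPM in the p53-siRNA cells (adjusted p = 0.178), with overlapping groups. The endoplasmic reticulum chaperones Hspa5 and Hsp90b1 had changes of -0.23 ± 0.09 and -0.23 ± 0.08 (adjusted p = 0.107 and 0.11). The Asns promoter (chr6:7693160-7693459, minus strand) is given because Asns is a standard ATF4 target; TGATGNAA, the C/EBP-ATF response element, is in capitals.
Asns: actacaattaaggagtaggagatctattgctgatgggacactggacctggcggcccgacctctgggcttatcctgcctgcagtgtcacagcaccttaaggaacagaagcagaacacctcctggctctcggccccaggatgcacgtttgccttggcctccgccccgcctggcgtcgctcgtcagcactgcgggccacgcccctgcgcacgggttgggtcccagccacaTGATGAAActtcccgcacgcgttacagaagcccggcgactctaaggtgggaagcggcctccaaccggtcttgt
TGATGNAA was present on either strand in 10 of 34 members of the list with a promoter entry, and in 5 of the 15 of these that fell, against 4.51% of all genes.

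Among p53 target genes, PRMT1 siRNA raised 15 of 43 and lowered none although both groups had p53 siRNA, against 3.78% of all genes rising. The median was 0.21 with 16 libraries and 0.30 with 15, and 9 of the 15 rises were stable. DESeq2 called 12 members higher and 0 lower in both fits, and length offsets 17 higher and 3 lower. Trp53 was higher in the same libraries, as given above, and its part in this result was not tested. Cdkn1a (chr17:29090979-29100722, plus strand), which encodes the cell cycle inhibitor p21, had 47.5 and 47.7 CPM in the double-siRNA cells, against 22.9 and 24.7 CPM in the p53-siRNA cells (1.002 ± 0.07, adjusted p = 2.54e-05). The replicates of each group lay close together, and the change was 1.06 with 15 libraries.

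Of the other p53 targets that rose, 7 are described. Ccng1, a cyclin that recruits a phosphatase to Mdm2, had 235.3 and 236.0 CPM in the double-siRNA cells, against 149.8 and 128.2 CPM in the p53-siRNA cells (0.76 ± 0.08, adjusted p = 3.09e-04). Zmat3, an RNA-binding tumour suppressor, had 73.5 and 77.1 CPM in the double-siRNA cells, against 49.7 and 38.7 CPM in the p53-siRNA cells (0.77 ± 0.11, adjusted p = 0.00155). Among death genes, Pmaip1, which encodes NOXA, had 11.1 and 10.7 CPM in the double-siRNA cells, against 5.16 and 4.02 CPM in the p53-siRNA cells (1.25 ± 0.14, adjusted p = 3.41e-04), and the death receptor gene Tnfrsf10b had 35.1 and 35.9 CPM in the double-siRNA cells, against 25.9 and 20.6 CPM in the p53-siRNA cells (0.61 ± 0.11, adjusted p = 0.00547). Eda2r, a TNF receptor family member, had 39.6 and 42.1 CPM in the double-siRNA cells, against 16.2 and 9.49 CPM in the p53-siRNA cells (1.66 ± 0.19, adjusted p = 4.77e-04). Each had double-siRNA values above both p53-siRNA values, as every rise called in both fits did. Ckap2, a spindle protein gene, and Epha2, an ephrin receptor gene, changed by 0.52 ± 0.09 and 0.49 ± 0.07 (adjusted p = 0.00364 and 0.00231). The most abundant targets that did not pass in both fits were Plk2, with 305.0 and 292.1 CPM in the double-siRNA cells, against 269.5 and 283.9 CPM in the p53-siRNA cells, Ak1, with 171.4 and 161.4 CPM in the double-siRNA cells, against 161.6 and 202.0 CPM in the p53-siRNA cells, and Phlda3, with 91.2 and 83.7 CPM in the double-siRNA cells, against 64.4 and 98.01 CPM in the p53-siRNA cells.

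Of 14 tested p53 regulators, Mdm2 and Trp53 rose and none fell. Mdm2, the ubiquitin ligase that is both target and inhibitor of p53, had 115.0 and 113.7 CPM in the double-siRNA cells, against 94.5 and 78.2 CPM in the p53-siRNA cells (0.41 ± 0.09, adjusted p = 0.0154); its adjusted p was 0.0861 without replicate 1 and 0.0836 without replicate 2 of the double-siRNA cells. Mdm4, the second inhibitor, which the study's title names, had 99.95 and 112.9 CPM in the double-siRNA cells, against 144.1 and 73.3 CPM in the p53-siRNA cells, so its groups overlapped. Its change was -0.03 ± 0.22 with 16 libraries (adjusted p = 0.939) and -0.43 with 15. It was 0.54 without replicate 1 of the p53-siRNA cells, which leaves the deviating library, so its direction rested on which p53-siRNA library was used. On control siRNA with TGF-beta, Mdm4 had 83.2 and 81.2 CPM after PRMT1 siRNA, against 137.9 and 147.3 CPM without it. On p53 siRNA without TGF-beta, it had 112.3 and 128.2 CPM after PRMT1 siRNA, against 157.3 and 156.5 CPM without it.

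**Figure D3:**
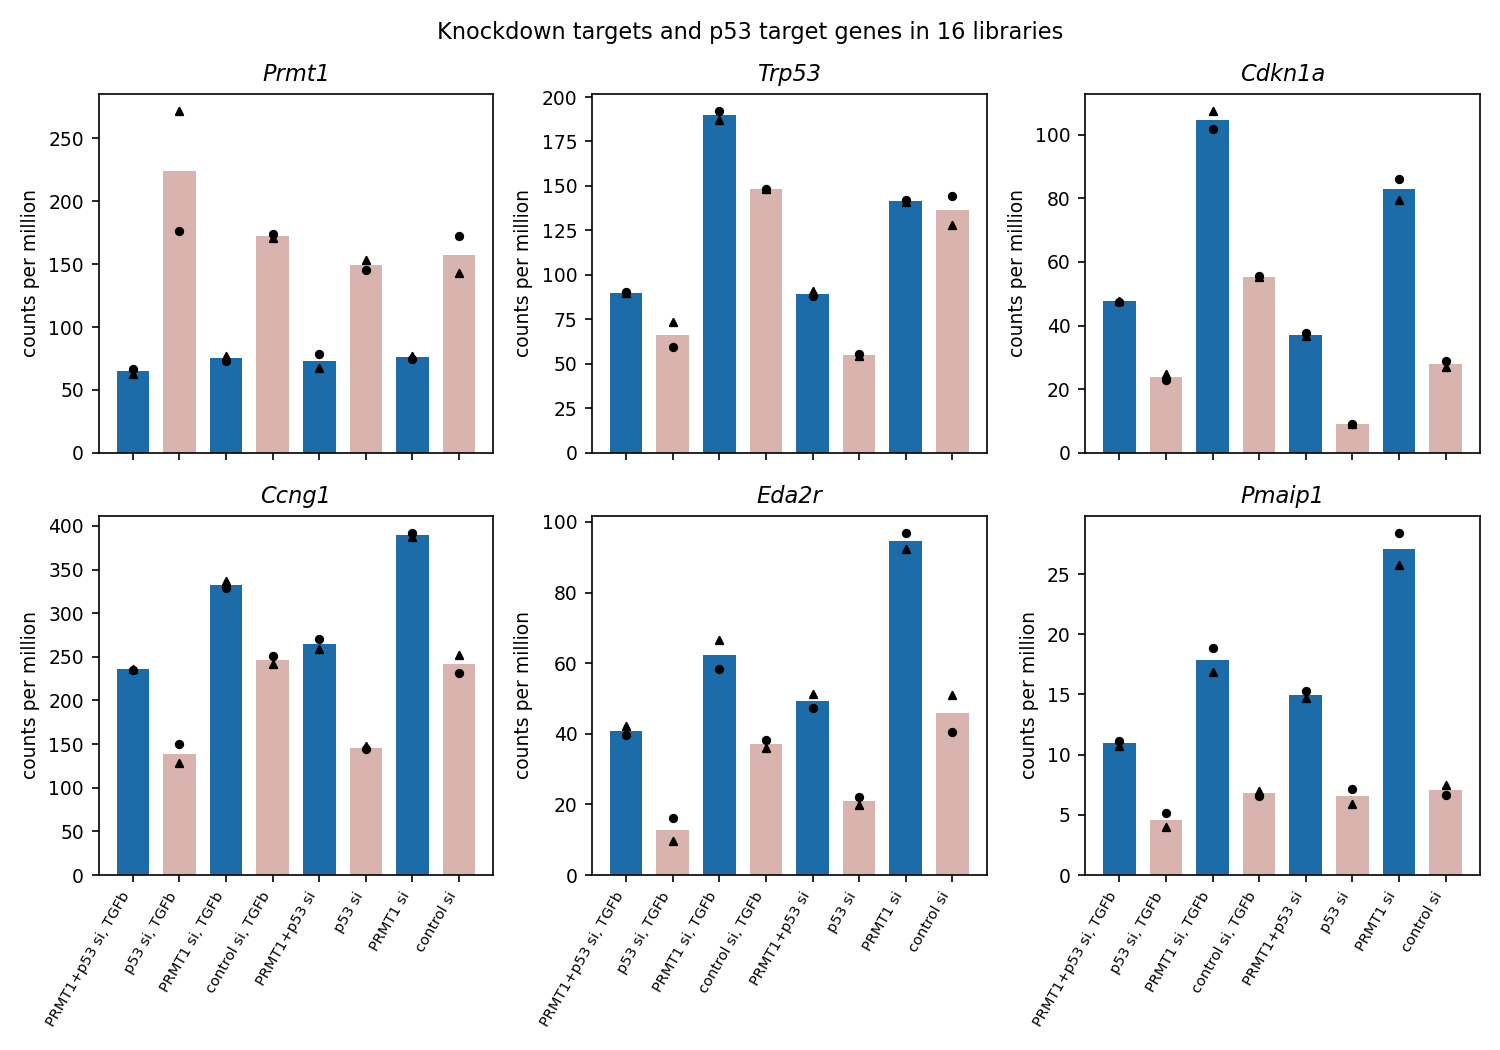
CPM of Prmt1, Trp53 and 4 p53 target genes in all 16 libraries; bars are group means, circles replicate 1, triangles replicate 2, and blue bars are groups given PRMT1 siRNA, each to the left of the group without it. Cdkn1a averaged 47.6 CPM in the double-siRNA cells with TGF-beta, against 23.8 CPM in the p53-siRNA cells, both under the 55.4 CPM of control siRNA with TGF-beta.

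Of 26 apoptosis regulators 4 were higher and 1 lower. Besides Pmaip1 and Tnfrsf10b, given among the p53 targets, the inhibitor of apoptosis genes Birc2 and Birc3 rose (0.38 ± 0.08 and 0.55 ± 0.12), though Birc2 had an adjusted p of 0.0899 without replicate 1 and 0.0938 without replicate 2 of the double-siRNA cells, and Birc3 one of 0.144 without replicate 1. Bmf, a death-promoting BH3 protein gene, had 4.65 and 4.46 CPM in the double-siRNA cells, against 7.55 and 7.89 CPM in the p53-siRNA cells (-0.76 ± 0.11, adjusted p = 0.00154). Mcl1, a survival gene, had 140.4 and 136.6 CPM in the double-siRNA cells, against 134.8 and 132.8 CPM in the p53-siRNA cells, a change of 0.05 ± 0.06.

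Few members of the list of interferon-stimulated genes were called. These genes encode antiviral effectors and are switched on by interferon signalling. PRMT1 siRNA raised 5 of 48 members and lowered 2, against 3.78% of all genes rising and 2.59% falling. DESeq2 called 8 higher and 5 lower, and length offsets gave 7 and 5. The list had a median of 0.05 with 16 libraries and 0.09 with 15. The rises were RNA and DNA sensors and their enzymes. Oas2, which makes oligoadenylates on sensing double-stranded RNA, had 55.2 and 64.2 CPM in the double-siRNA cells, against 18.8 and 18.4 CPM in the p53-siRNA cells (1.68 ± 0.21, adjusted p = 6.93e-04). Zbp1, a sensor of Z-form nucleic acid, had 104.1 and 97.3 CPM in the double-siRNA cells, against 28.7 and 45.5 CPM in the p53-siRNA cells (1.44 ± 0.23, adjusted p = 0.00312). Oas1g had 37.9 and 36.9 CPM in the double-siRNA cells, against 8.68 and 15.2 CPM in the p53-siRNA cells (1.65 ± 0.26, adjusted p = 0.00273); its near-identical neighbours make the assignment of its reads uncertain. These 3 rises were stable. On p53 siRNA without TGF-beta, Oas2 averaged 260.9 CPM and Oas1g 96.2 CPM, so their rises were measured at lower levels. Oas3 had 7.33 and 7.94 CPM in the double-siRNA cells, against 4.36 and 2.99 CPM in the p53-siRNA cells and Dhx58, a regulator of RNA sensing, had 46.1 and 42.9 CPM in the double-siRNA cells, against 21.01 and 30.2 CPM in the p53-siRNA cells; without replicate 2 of the double-siRNA cells their adjusted p-values were 0.0555 and 0.0728, and for Dhx58 it was 0.0966 without replicate 1.

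In the opposite direction, Irgm1, an immunity-related GTPase gene, had 277.6 and 269.6 CPM in the double-siRNA cells, against 365.4 and 412.5 CPM in the p53-siRNA cells (-0.51 ± 0.09, adjusted p = 0.00561), and Parp12, an antiviral ADP-ribosyltransferase gene, had 142.2 and 139.9 CPM in the double-siRNA cells, against 185.7 and 169.97 CPM in the p53-siRNA cells (-0.33 ± 0.09, adjusted p = 0.0374). Neither fall was stable; their adjusted p-values were 0.0513 and 0.152 without replicate 1 of the double-siRNA cells and 0.0764 and 0.217 without replicate 2. Abundant members did not pass: Oasl2 had 422.9 and 423.2 CPM in the double-siRNA cells, against 362.6 and 430.8 CPM in the p53-siRNA cells. Bst2 (tetherin) had 440.6 and 408.7 CPM in the double-siRNA cells, against 357.9 and 694.3 CPM in the p53-siRNA cells, with the p53-siRNA libraries on either side.

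The Oas3 promoter (chr5:120777610-120777909, minus strand) is shown as an example of the interferon-stimulated response element, GAAANNGAA, of which it holds 2 overlapping matches, in capitals.
Oas3: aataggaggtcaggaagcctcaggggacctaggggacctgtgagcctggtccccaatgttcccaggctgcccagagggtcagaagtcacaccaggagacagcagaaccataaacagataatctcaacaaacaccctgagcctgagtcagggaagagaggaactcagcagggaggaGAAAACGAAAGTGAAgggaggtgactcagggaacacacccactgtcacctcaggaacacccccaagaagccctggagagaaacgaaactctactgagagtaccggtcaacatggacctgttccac
The element was present on either strand in 22 of 35 members with a promoter entry, against 9.76% of all genes, and in both members that rose and have an entry.

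MHC class I antigen presentation genes, which load peptides for display to T cells, had 5 of 14 members higher and none lower (1 lower with DESeq2). Nlrc5, the transactivator of class I genes, had 14.01 and 15.2 CPM in the double-siRNA cells, against 4.03 and 4.44 CPM in the p53-siRNA cells (1.79 ± 0.17, adjusted p = 1.28e-04) and was the stable member of the 5. It averaged 41.5 CPM on p53 siRNA without TGF-beta, so its rise was measured at a lower level. Tap1 and Tap2, the peptide transporter subunits, changed by 0.38 ± 0.11 and 0.62 ± 0.12, and the immunoproteasome subunits Psmb8 and Psmb9 by 1.04 ± 0.23 and 0.87 ± 0.24. For these 4 the adjusted p-values were 0.243, 0.0999, 0.125 and 0.191 without replicate 1 of the double-siRNA cells, and 0.146, 0.0693, 0.0792 and 0.132 without replicate 2. Tap1 and Psmb9 also lost the call without replicate 1 of the p53-siRNA cells (0.053 and 0.071). B2m, the invariant light chain, had 973.4 and 906.4 CPM in the double-siRNA cells, against 595.2 and 947.5 CPM in the p53-siRNA cells, passing with 15 libraries (0.67, adjusted p = 0.0123) and not with 16 (0.348). The list's median was 0.03 with 16 libraries and 0.29 with 15, and its median transcript length was 850 bases.

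Secreted inflammatory genes rose in 9 of 31 cases and fell in 1, and 7 of the rises and the fall were stable. The neutrophil chemokine Cxcl5 had 180.4 and 181.5 CPM in the double-siRNA cells, against 62.3 and 76.2 CPM in the p53-siRNA cells (1.39 ± 0.15, adjusted p = 3.08e-04), and its relative Cxcl1 had 27.8 and 28.3 CPM in the double-siRNA cells, against 13.4 and 15.4 CPM in the p53-siRNA cells (0.96 ± 0.10, adjusted p = 3.41e-04). C3, the central complement component, had 108.9 and 115.9 CPM in the double-siRNA cells, against 58.4 and 57.6 CPM in the p53-siRNA cells (0.95 ± 0.11, adjusted p = 4.66e-04). Il33, an alarmin cytokine, had 12.5 and 12.6 CPM in the double-siRNA cells, against 6.05 and 4.75 CPM in the p53-siRNA cells (1.21 ± 0.15, adjusted p = 7.21e-04). In each of these the double-siRNA replicates lay close together. They also lay above both p53-siRNA replicates, as in every rise called in both fits. On p53 siRNA without TGF-beta, Cxcl5 averaged 261.3 CPM, Cxcl1 24.9 CPM, C3 610.9 CPM and Il33 43.6 CPM. The p53-siRNA levels from which these genes rose were thus lower than without TGF-beta. Saa3, an acute phase protein gene, had 17.5 and 16.4 CPM in the double-siRNA cells, against 4.22 and 7.69 CPM in the p53-siRNA cells (1.52 ± 0.24, adjusted p = 0.00271), and Ptgs2, the inducible cyclooxygenase gene, had 365.4 and 370.1 CPM in the double-siRNA cells, against 224.0 and 144.8 CPM in the p53-siRNA cells (0.996 ± 0.15, adjusted p = 0.00222). Tnfaip3, a feedback inhibitor of NF-kappaB, changed by 0.60 ± 0.09. The member that fell was Cx3cl1 (fractalkine), with 15.6 and 15.8 CPM in the double-siRNA cells, against 28.8 and 28.7 CPM in the p53-siRNA cells (-0.88 ± 0.10, adjusted p = 4.36e-04). Cxcl12 and Csf1 changed by 0.02 ± 0.08 and 0.17 ± 0.08 and did not pass.

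Epicardial and mesothelial genes were higher in 9 of 25 cases and lower in 1, with a median of 0.44 with 16 libraries and 0.29 with 15. Of the 9 rises 5 were stable. Gata6, a transcription factor gene of the early heart and epicardium, had 56.5 and 57.5 CPM in the double-siRNA cells, against 39.7 and 40.8 CPM in the p53-siRNA cells (0.50 ± 0.06, adjusted p = 6.53e-04), and its relative Gata4 had 69.7 and 62.4 CPM in the double-siRNA cells, against 44.7 and 44.2 CPM in the p53-siRNA cells (0.57 ± 0.08, adjusted p = 0.00128). Among surface genes, mesothelin (Msln) had 49.01 and 45.8 CPM in the double-siRNA cells, against 21.3 and 28.8 CPM in the p53-siRNA cells (0.92 ± 0.11, adjusted p = 7.08e-04), podocalyxin (Podxl) had 15.7 and 16.5 CPM in the double-siRNA cells, against 10.2 and 6.34 CPM in the p53-siRNA cells (0.95 ± 0.17, adjusted p = 0.00563), and Gpm6a had 5.11 and 5.31 CPM in the double-siRNA cells, against 1.64 and 2.01 CPM in the p53-siRNA cells (1.51 ± 0.14, adjusted p = 1.08e-04). All 5 had higher values in both double-siRNA libraries, as every rise called in both fits did. Aldh1a1, a retinaldehyde dehydrogenase gene, Tbx18, an epicardial T-box factor gene, and Lrrn4 changed by 0.44 ± 0.08, 0.52 ± 0.11 and 0.66 ± 0.13; without replicate 1 of the double-siRNA cells Aldh1a1 and Tbx18 had adjusted p-values of 0.0909 and 0.0579, and without replicate 2 Tbx18 and Lrrn4 had 0.0856 and 0.107. Wt1 changed by 0.15 ± 0.09, and Tbx20 and Bnc1 did not pass in both fits (0.69 and 0.44 with 16 libraries, 0.29 and 0.26 with 15). The 5 stable genes averaged less on p53 siRNA with TGF-beta than without it. Gpm6a averaged 1.83 against 267.3 CPM and Podxl 8.28 against 701.5 CPM, so their rises were measured at a residual level. Without TGF-beta, these 2 averaged less after both siRNAs (202.4 and 526.5 CPM), while Msln averaged more (145.8 against 103.1 CPM).

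Epithelial junction and keratin genes were called in 3 of 18 cases. Cgn (cingulin), a tight junction scaffold gene, had 32.1 and 35.6 CPM in the double-siRNA cells, against 24.9 and 20.7 CPM in the p53-siRNA cells (0.57 ± 0.09, adjusted p = 0.00284). Jup (plakoglobin), shared by adherens junctions and desmosomes, had 115.4 and 117.8 CPM in the double-siRNA cells, against 180.8 and 216.6 CPM in the p53-siRNA cells (-0.77 ± 0.09, adjusted p = 4.66e-04). Krt8, a simple epithelial keratin gene, was near the detection limit in the double-siRNA cells, with 0.214 and 0.283 CPM in the double-siRNA cells, against 1.59 and 1.44 CPM in the p53-siRNA cells (-2.58 ± 0.30, adjusted p = 4.77e-04). Tjp1 (ZO-1) had 210.8 and 250.6 CPM in the double-siRNA cells, against 244.9 and 110.5 CPM in the p53-siRNA cells, and its groups overlapped; F11r, a junctional adhesion molecule gene, changed by -0.09 ± 0.08. Krt18, the partner of Krt8, passed with 16 libraries (-0.66) and not with 15 (-0.20, adjusted p = 0.107).

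Collagen and fibroblast matrix genes fell in 8 of 42 cases and rose in 3. With length offsets 17 fell and 3 rose; the list's median transcript length was 4139.5 bases, and the deviating library has fewer counts in long transcripts. The type I collagen genes were the most abundant: Col1a1 (chr11:94936224-94953042, plus strand) had 9302 and 9819.7 CPM in the double-siRNA cells, against 14159 and 14888 CPM in the p53-siRNA cells (-0.60 ± 0.09, adjusted p = 0.00231), and Col1a2 had 7249.8 and 7529 CPM in the double-siRNA cells, against 10709 and 10323 CPM in the p53-siRNA cells (-0.51 ± 0.08, adjusted p = 0.00378). Postn (periostin), a matricellular protein gene of activated fibroblasts, had 428.6 and 429.5 CPM in the double-siRNA cells, against 737.1 and 696.5 CPM in the p53-siRNA cells (-0.74 ± 0.09, adjusted p = 5.66e-04). Col1a1 and Postn were stable falls, while Col1a2 had an adjusted p of 0.0566 without replicate 1 of the double-siRNA cells. Members that rose included a pair of small leucine-rich proteoglycan genes: decorin (Dcn) had 154.1 and 147.6 CPM in the double-siRNA cells, against 64.6 and 78.05 CPM in the p53-siRNA cells (1.08 ± 0.14, adjusted p = 7.21e-04), and osteoglycin (Ogn) had 62.95 and 63.6 CPM in the double-siRNA cells, against 49.2 and 47.5 CPM in the p53-siRNA cells (0.39 ± 0.06, adjusted p = 0.00238). On p53 siRNA without TGF-beta, Dcn averaged 1911 CPM and Ogn 126.6 CPM, so both rises were measured at lower levels. Sparc, Col16a1 and Thbs2 fell by less certain amounts (-0.60 ± 0.12, -0.51 ± 0.10 and -0.92 ± 0.19). Their adjusted p-values were 0.104, 0.0514 and 0.0963 without replicate 1 of the double-siRNA cells and 0.101, 0.117 and 0.079 without replicate 2. Col3a1 had 2552 and 2563 CPM in the double-siRNA cells, against 2762 and 2799.6 CPM in the p53-siRNA cells and did not pass (-0.12 ± 0.09), nor did Col5a2 or Bgn, another small leucine-rich proteoglycan gene (-0.05 ± 0.10 and -0.14 ± 0.08).

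Mesenchymal and EMT genes had 5 of 29 members lower and 3 higher, against 2.59% of all genes falling and 3.78% rising, and the stable member was Cd44, the hyaluronan receptor gene, with 206.3 and 207.3 CPM in the double-siRNA cells, against 162.0 and 131.6 CPM in the p53-siRNA cells (0.49 ± 0.09, adjusted p = 0.00512). Snai1, a transcription factor gene that represses epithelial genes, had 53.8 and 53.7 CPM in the double-siRNA cells, against 65.3 and 92.2 CPM in the p53-siRNA cells (-0.55 ± 0.13, adjusted p = 0.023), with adjusted p-values of 0.138 and 0.167 without replicates 1 and 2 of the double-siRNA cells. Foxc2, another EMT factor gene, had 13.2 and 10.7 CPM in the double-siRNA cells, against 20.6 and 25.1 CPM in the p53-siRNA cells (-0.94 ± 0.17, adjusted p = 0.00629), and 0.0954 without replicate 2. Pdgfra, the receptor gene that marks epicardium-derived fibroblasts, had 428.8 and 466.0 CPM in the double-siRNA cells, against 283.9 and 171.0 CPM in the p53-siRNA cells (0.98 ± 0.18, adjusted p = 0.007), with an adjusted p of 0.06 without replicate 2. Fibronectin (Fn1) had 7958 and 9867 CPM in the double-siRNA cells, against 11073 and 6124 CPM in the p53-siRNA cells and vimentin (Vim) 1309 and 1208 CPM in the double-siRNA cells, against 1402 and 2102 CPM in the p53-siRNA cells; neither passed, and the Fn1 groups overlapped.

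Of 26 early target genes of TGF-beta, 2 fell and none rose. Tgfbi, a secreted matrix protein gene, had 110.6 and 109.8 CPM in the double-siRNA cells, against 162.1 and 190.1 CPM in the p53-siRNA cells (-0.68 ± 0.09, adjusted p = 0.00127) and was stable. Ctgf (Ccn2) had 216.9 and 196.2 CPM in the double-siRNA cells, against 277.2 and 299.97 CPM in the p53-siRNA cells (-0.48 ± 0.10, adjusted p = 0.0153), with adjusted p-values of 0.0585 and 0.166 without replicates 1 and 2 of the double-siRNA cells. Pmepa1, a feedback inhibitor, and Thbs1, an activator of latent TGF-beta, had changes of -0.13 ± 0.09 and 0.04 ± 0.18. The list's median was -0.02.

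Ligands, receptors and extracellular regulators of TGF-beta had 4 of 24 members higher and 3 lower. Tgfbr3 (betaglycan), the coreceptor, had 59.3 and 65.03 CPM in the double-siRNA cells, against 28.5 and 18.7 CPM in the p53-siRNA cells (1.40 ± 0.18, adjusted p = 7.49e-04). Fst (follistatin), which binds activin, had 13.5 and 12.4 CPM in the double-siRNA cells, against 7.08 and 7.69 CPM in the p53-siRNA cells (0.81 ± 0.08, adjusted p = 2.61e-04). The ligand gene Tgfb3 had 85.5 and 82.7 CPM in the double-siRNA cells, against 125.7 and 131.2 CPM in the p53-siRNA cells (-0.61 ± 0.06, adjusted p = 2.61e-04), and Ltbp3, which tethers the latent ligand to matrix, had 237.3 and 241.5 CPM in the double-siRNA cells, against 369.4 and 384.3 CPM in the p53-siRNA cells (-0.65 ± 0.06, adjusted p = 1.87e-04). These 4 were stable. Tgfbr2, Smad3 and Fstl1 changed by 0.33 ± 0.08, 0.65 ± 0.12 and -0.32 ± 0.07, and without replicate 2 of the double-siRNA cells their adjusted p-values were 0.162, 0.0612 and 0.145. For Tgfbr2 and Fstl1 they were 0.0968 and 0.142 without replicate 1. Tgfb2 and Ltbp1 did not pass (0.19 ± 0.10 and 0.05 ± 0.14). Of 15 BMP-responsive genes, Grem1, a secreted BMP antagonist gene, had 460.8 and 467.7 CPM in the double-siRNA cells, against 332.2 and 260.9 CPM in the p53-siRNA cells (0.65 ± 0.11, adjusted p = 0.00353), and Bmp6, a ligand gene, had 4.25 and 4.87 CPM in the double-siRNA cells, against 2.35 and 2.48 CPM in the p53-siRNA cells (0.92 ± 0.15, adjusted p = 0.00339); both were stable, and none fell (1 fell with DESeq2 and 2 with length offsets).

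For smooth muscle contractile genes, which TGF-beta induces in epicardial derivatives, edgeR called 0 of 25 in both fits. At an unadjusted p under 0.05 in both fits 1 was higher and 3 lower, against 1309 higher and 975 lower of all 15494 genes. DESeq2 called 0. Acta2, smooth muscle actin, had 1666 and 1595 CPM in the double-siRNA cells, against 2036 and 3149 CPM in the p53-siRNA cells; it passed with 16 libraries (-0.67, adjusted p = 0.0463) and not with 15 (-0.31, adjusted p = 0.195). Among 31 extracellular protease genes, Adamts2, which processes procollagen, fell stably, with 65.1 and 62.5 CPM in the double-siRNA cells, against 92.8 and 87.4 CPM in the p53-siRNA cells (-0.50 ± 0.07, adjusted p = 0.00228). Serpinb2, a plasminogen activator inhibitor gene expressed at a low level, had 1.14 and 0.848 CPM in the double-siRNA cells, against 0.0938 and 0.155 CPM in the p53-siRNA cells (2.96 ± 0.45, adjusted p = 0.00231), and DESeq2 did not call it in both fits. Mmp2 and Mmp14, the abundant gelatinase and membrane protease genes, changed by -0.17 ± 0.08 and 0.00 ± 0.06. Among 23 integrin and laminin genes, Lama4, a laminin chain gene of vessel and muscle basement membranes, had 3.86 and 4.55 CPM in the double-siRNA cells, against 0.704 and 0.464 CPM in the p53-siRNA cells (2.83 ± 0.26, adjusted p = 1.08e-04), and Itga11, a collagen-binding integrin gene, had 24.3 and 25.7 CPM in the double-siRNA cells, against 45.8 and 36.4 CPM in the p53-siRNA cells (-0.72 ± 0.14, adjusted p = 0.0104). The Lama4 rise was stable, whereas Itga11 had adjusted p-values of 0.09 and 0.0705 without replicates 1 and 2 of the double-siRNA cells.

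Growth factor and receptor genes rose in 8 of 34 cases and none fell (1 fell with DESeq2 and 1 with length offsets), although the list's median was 0.11 with 16 libraries and -0.00 with 15. Ereg (epiregulin), an EGF receptor ligand gene, had 22.2 and 22.4 CPM in the double-siRNA cells, against 9.52 and 6.50 CPM in the p53-siRNA cells (1.47 ± 0.15, adjusted p = 2.61e-04). Igfbp3, which binds insulin-like growth factors, had 467.8 and 451.9 CPM in the double-siRNA cells, against 254.0 and 286.7 CPM in the p53-siRNA cells (0.77 ± 0.10, adjusted p = 7.59e-04), and Fgf7 had 27.4 and 27.3 CPM in the double-siRNA cells, against 16.9 and 17.1 CPM in the p53-siRNA cells (0.69 ± 0.10, adjusted p = 0.0023). These 3 were stable. Igf2 and Egfr rose by 0.38 ± 0.08 and 0.75 ± 0.20, with adjusted p-values of 0.0579 and 0.0891 without replicate 1 of the double-siRNA cells and 0.136 and 0.209 without replicate 2. The receptor gene Axl and the ligand gene Gas6 were not called (0.11 ± 0.08 and -0.18 ± 0.09).

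Wnt and Notch pathway genes rose in 6 of 27 cases and fell in 2. Notch3, the receptor of mural cells, had 26.2 and 27.8 CPM in the double-siRNA cells, against 12.99 and 8.77 CPM in the p53-siRNA cells (1.31 ± 0.17, adjusted p = 8.71e-04). Tcf7, a transcription factor of the Wnt pathway, had 6.83 and 6.88 CPM in the double-siRNA cells, against 3.94 and 3.40 CPM in the p53-siRNA cells (0.90 ± 0.16, adjusted p = 0.00503), the receptor gene Fzd7 had 94.2 and 98.1 CPM in the double-siRNA cells, against 73.7 and 63.1 CPM in the p53-siRNA cells (0.49 ± 0.08, adjusted p = 0.00367), and Wnt9a had 6.40 and 5.56 CPM in the double-siRNA cells, against 2.77 and 3.40 CPM in the p53-siRNA cells (0.95 ± 0.16, adjusted p = 0.0039). Lfng, which glycosylates Notch receptors, had 13.3 and 11.6 CPM in the double-siRNA cells, against 20.2 and 20.9 CPM in the p53-siRNA cells (-0.73 ± 0.11, adjusted p = 0.00231). These 5 were stable. Axin2, a feedback target of Wnt signalling, had 6.33 and 6.41 CPM in the double-siRNA cells, against 3.56 and 2.06 CPM in the p53-siRNA cells (1.17 ± 0.22, adjusted p = 0.00745), with an adjusted p of 0.0505 without replicate 2 of the double-siRNA cells. Notch2 and Wnt5a, more abundant than these, did not pass (0.45 ± 0.23 and 0.47 ± 0.15).

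Hypoxia and glycolysis genes rose in 8 of 33 cases and none fell (1 fell with length offsets). The stable members were Bnip3, a mitophagy receptor gene, with 41.8 and 37.99 CPM in the double-siRNA cells, against 18.7 and 23.6 CPM in the p53-siRNA cells (0.92 ± 0.12, adjusted p = 7.59e-04); Pdk1, which limits pyruvate entry into mitochondria, with 28.2 and 26.6 CPM in the double-siRNA cells, against 16.7 and 14.5 CPM in the p53-siRNA cells (0.81 ± 0.10, adjusted p = 7.08e-04); Pfkfb3, an activator of glycolysis, with 92.1 and 93.6 CPM in the double-siRNA cells, against 63.6 and 50.7 CPM in the p53-siRNA cells (0.70 ± 0.10, adjusted p = 0.00124); and Ndrg1, with 78.4 and 72.7 CPM in the double-siRNA cells, against 52.1 and 56.2 CPM in the p53-siRNA cells (0.48 ± 0.07, adjusted p = 0.00166). The abundant glycolytic enzyme genes Gapdh, Pkm and Eno1 did not pass in both fits; Eno1 was -0.04 with 16 libraries and 0.35 with 15. Of 31 immediate early genes 4 rose, and Egr1, a serum-induced transcription factor gene, was the stable member, with 14.4 and 15.5 CPM in the double-siRNA cells, against 8.11 and 7.996 CPM in the p53-siRNA cells (0.89 ± 0.12, adjusted p = 0.00128).

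Few proliferation genes were called. For 35 DNA replication and S phase genes edgeR called 0 in both fits, and DESeq2 called 0. At an unadjusted p under 0.05 in both edgeR fits 1 was higher and 2 lower, against 1309 higher and 975 lower of all 15494 genes. Mcm2, a subunit of the replicative helicase, had 191.7 and 194.7 CPM in the double-siRNA cells, against 188.6 and 205.9 CPM in the p53-siRNA cells. Of 36 G2 and mitosis genes 2 rose, Nusap1 and Prc1, both spindle microtubule genes (0.33 ± 0.07 and 0.35 ± 0.07), and their adjusted p-values were 0.0971 and 0.086 without replicate 1 of the double-siRNA cells and 0.0729 and 0.0811 without replicate 2. Among 25 RNA-binding proteins known as arginine methylation substrates, 3 fell (5 with DESeq2, 6 with length offsets) and none of the 3 falls was stable. Taf15 and Ewsr1 changed by -0.51 ± 0.09 and -0.36 ± 0.07, with adjusted p-values of 0.0716 and 0.107 without replicate 2 of the double-siRNA cells, and of 0.0827 for Ewsr1 without replicate 1. Ribosomal protein genes, whose transcripts are short, had a median of -0.46 with 16 libraries and 0.04 with 15, and 1 of 31 was called.

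Outside the lists, the larger rises included genes of varied function and genes that are, or whose families are, interferon-inducible. Among the latter, Gbp10 had 16.5 and 18.9 CPM in the double-siRNA cells, against 7.65 and 4.90 CPM in the p53-siRNA cells. Ifi27l2a had 32.6 and 27.9 CPM in the double-siRNA cells, against 5.96 and 14.4 CPM in the p53-siRNA cells. The rises of Gbp10 and Sp100, described below, were stable, and that of Ifi27l2a was not. Clu (clusterin), an extracellular chaperone gene, had 34.4 and 34.9 CPM in the double-siRNA cells, against 8.07 and 12.7 CPM in the p53-siRNA cells (1.74 ± 0.19, adjusted p = 3.08e-04). Steap4, a metalloreductase gene, had 13.5 and 13.8 CPM in the double-siRNA cells, against 4.17 and 4.64 CPM in the p53-siRNA cells (1.63 ± 0.11, adjusted p = 2.24e-05). Both were stable, and so was Trim30d, which had 11.6 and 10.96 CPM in the double-siRNA cells, against 3.33 and 1.96 CPM in the p53-siRNA cells but belongs to a cluster of near copies. Abca1, the cholesterol exporter gene, had 8.97 and 13.3 CPM in the double-siRNA cells, against 4.64 and 1.60 CPM in the p53-siRNA cells (1.82 ± 0.33, adjusted p = 0.00658), with an adjusted p of 0.0676 without replicate 2 of the double-siRNA cells. Among genes at a mean of 5 CPM or more, the larger falls besides Prmt1 and the sterol genes included Rpl22l1, a ribosomal protein paralog gene, with 55.3 and 47.4 CPM in the double-siRNA cells, against 111.0 and 184.9 CPM in the p53-siRNA cells (-1.53 ± 0.19, adjusted p = 7.08e-04), Ckb, brain-type creatine kinase, with 16.2 and 15.3 CPM in the double-siRNA cells, against 33.4 and 58.7 CPM in the p53-siRNA cells (-1.55 ± 0.20, adjusted p = 0.00101), Rgs5, a G-protein signalling regulator gene of pericytes, with 10.8 and 10.1 CPM in the double-siRNA cells, against 29.8 and 23.2 CPM in the p53-siRNA cells (-1.34 ± 0.19, adjusted p = 0.00143), and Tubb3, a beta-tubulin gene, with 9.58 and 9.51 CPM in the double-siRNA cells, against 20.9 and 27.9 CPM in the p53-siRNA cells (-1.35 ± 0.17, adjusted p = 7.08e-04). Cbr2, a carbonyl reductase gene, had 10.8 and 9.77 CPM in the double-siRNA cells, against 20.4 and 33.2 CPM in the p53-siRNA cells (-1.38 ± 0.21, adjusted p = 0.00266).

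The same siRNA was set against its control in 2 other settings that share no library with this comparison. With TGF-beta on control siRNA (PRMT1_si_TGFB against Cont_si_TGFB), 516 of the 585 rises (88.2%) and 376 of the 401 falls (93.8%) had the same sign, against 47.1% of the genes not called here. Of these, 327 were also called higher and 226 also called lower there, where 9.13% of all genes were higher and 6.53% lower. Without TGF-beta on p53 siRNA (PRMT1-p53_si against p53_si), 409 rises (69.9%) and 326 falls (81.3%) had the same sign, against 46.9% of the uncalled genes, with 182 and 140 called in the same direction, where 5.51% of all genes were higher and 5.18% lower. These are shares across genes, which are not independent. The cholesterol list fell in all 3 settings, with 21, 19 and 18 of 25 members called lower. No member was called for a difference by p53 background. Only 0.762% of all genes were called there, so this cannot show that the effects were equal. A more negative effect with TGF-beta than without was called for 4 members, where 1.22% of all genes had one. The amino acid and unfolded protein list had 17 of 40 members lower on p53 siRNA with TGF-beta and 15 on control siRNA with TGF-beta, but 1 on p53 siRNA without TGF-beta, and 7 members had a more negative effect with TGF-beta than without.

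**Figure D4:**
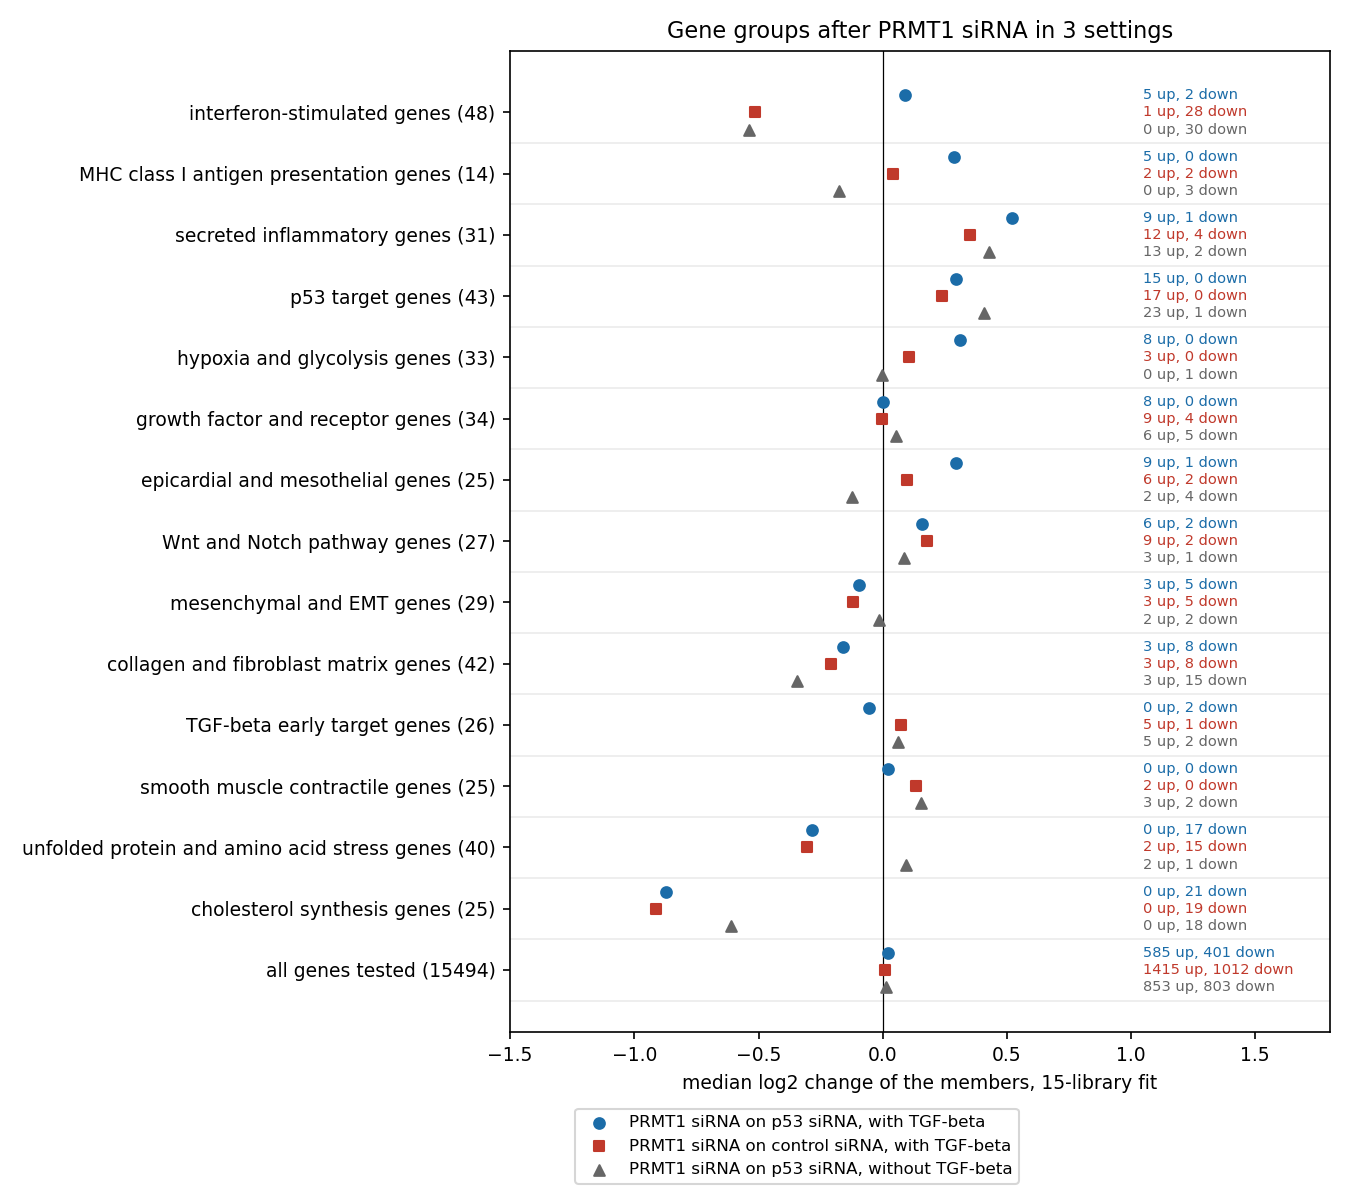
Median log2 change of the tested members of each gene group (number in brackets) after PRMT1 siRNA in 3 settings, from the 15-library fit; numbers at the right are members called higher and lower in both fits. Interferon-stimulated genes have 5 up and 2 down on p53 siRNA with TGF-beta (blue), 1 up and 28 down on control siRNA with TGF-beta (red) and 0 up and 30 down on p53 siRNA without TGF-beta (grey).

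The difference between the effects was tested directly. PRMT1 siRNA acted differently on p53 siRNA than on control siRNA, both with TGF-beta, for 118 genes (0.762%; 70 with a more positive effect on p53 siRNA, 0.452%, and 48 with a more negative one, 0.31%). This count fell to 8 without PRMT1_si_TGFB replicate 1, and to between 15 and 47 without each of the other 5 libraries it was computed for. It acted differently with than without TGF-beta, both on p53 siRNA, for 528 genes (3.41%; 339 more positive, 2.19%, and 189 more negative, 1.22%), and for 131 to 204 when single libraries were left out. No p53 target gene was among the 118, but with 0.762% of all genes called this cannot show that the effects were equal. Among the 528 were 8 of 43 p53 target genes, 3 more positive and 5 more negative. Cdkn1a rose by 1.002 ± 0.07 with TGF-beta and by 2.02 ± 0.08 without (difference -1.02 ± 0.10, adjusted p = 9.09e-04).

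The effects on interferon-stimulated genes differed between settings. They were more positive on p53 siRNA than on control siRNA for 9 of 48 and more negative for none, and more positive with than without TGF-beta for 19 and more negative for 1. Oas2 changed by 1.68 ± 0.21 on p53 siRNA and by -0.58 ± 0.20 on control siRNA (difference 2.26 ± 0.29, adjusted p = 0.00873). Parp12 changed by -0.33 ± 0.09 on p53 siRNA and by -0.97 ± 0.09 on control siRNA (difference 0.63 ± 0.13, adjusted p = 0.046), so the same antiviral gene fell in both with a larger fall on control siRNA. Nlrc5, of the MHC class I list, changed by 1.79 on p53 siRNA with TGF-beta, by 0.52 on control siRNA with TGF-beta and by -0.32 on p53 siRNA without it.

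**Figure D5:**
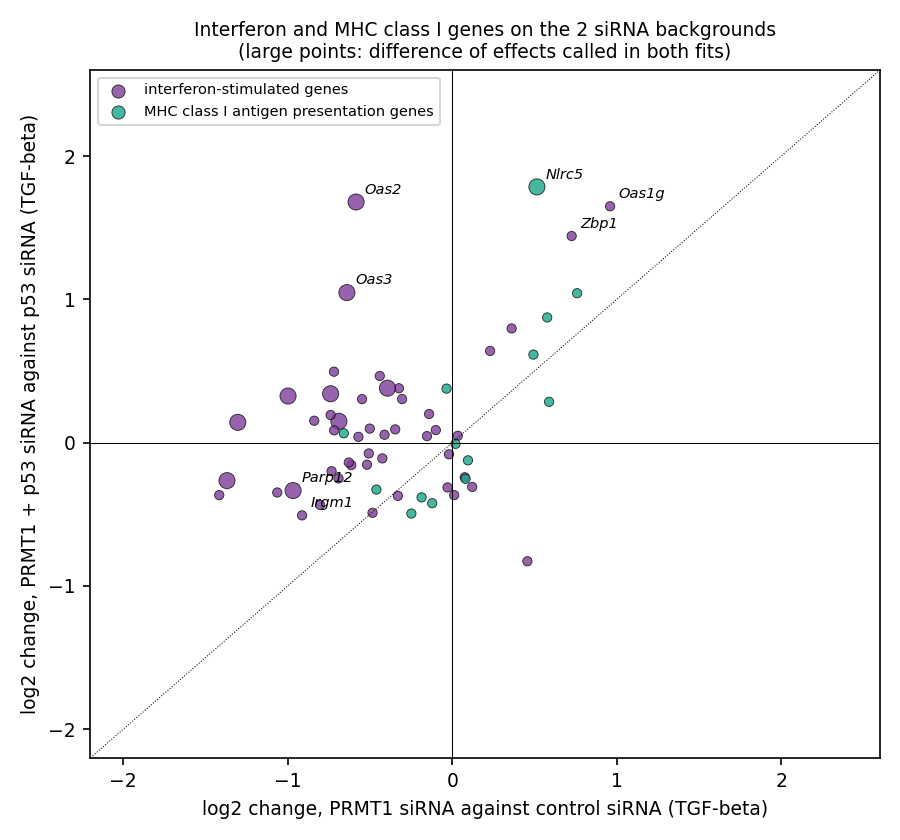
Log2 change after PRMT1 siRNA on p53 siRNA (y axis) and on control siRNA (x axis), both with TGF-beta, for interferon-stimulated (purple) and MHC class I (green) genes, from the 16-library fit; large points had a difference of effects called in both fits. Most purple points lie left of 0 on the x axis and near 0 on the y axis, where 28 of 48 genes were called lower on control siRNA and 2 on p53 siRNA.

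Epicardial genes were among those with differing effects, with 4 of 25 more positive and 1 more negative on p53 siRNA than on control siRNA, and 8 more positive with than without TGF-beta. Gata4 changed by 0.57 ± 0.08 with TGF-beta and by -0.10 ± 0.08 without (difference 0.67 ± 0.11, adjusted p = 0.00846), and Gpm6a by 1.51 ± 0.14 on p53 siRNA and -0.19 ± 0.14 on control siRNA (difference 1.71 ± 0.20, adjusted p = 0.00564). Mitosis genes had 26 of 36 members higher after PRMT1 siRNA on p53 siRNA without TGF-beta and 2 with it, and 9 members had a more negative effect with TGF-beta. Tpx2, a spindle assembly factor gene, changed by 0.01 ± 0.06 with TGF-beta and by 0.55 ± 0.06 without (difference -0.53 ± 0.09, adjusted p = 0.00972).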

How the data were processed

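RNA of 16 MEC1 libraries was poly(A)-enriched, per the labels' protocols. The authors deposited expected counts for each gene, not scaled for depth or length. The submitters' processing notes name TopHat2, Partek and mm10; versions, annotation, counting options and strand are not given in the sources used here. Some 60.0% of nonzero values were whole within 0.01, and all were rounded before testing. Of 46348 genes, 29120 had a count. Library totals were 19617874 to 30759317, and counting error is the only error they bound.

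Groups came from the sample titles. edgeR 4.0.16 (R 4.3.3; TMM scaling, filterByExpr, quasi-likelihood F test, 1 mean per group) was fitted to 16 libraries (15494 genes) and to 15 without replicate 2 of p53_si_TGFB (16103 genes). The biological coefficients of variation were 0.114 and 0.0604. A call needs a Benjamini-Hochberg adjusted p under 0.05 and the same sign in both fits. Adjusted p-values and log2 changes ± SE in the text are edgeR's with 16 libraries and n = 2 per group unless named otherwise. The spread was estimated over all groups in a fit, so libraries outside the comparison contribute to it. In the 15-library fit and in fits that leave 1 library out, the group with 1 library left adds no spread of its own. CPM are deposited counts scaled here.

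Alternatives were DESeq2 1.42.0, RLE in place of TMM, dropping the low-count filter, fitting only the groups compared, a replicate block, length offsets (lowess span 0.3, GENCODE vM21 lengths) and each library left out. Fits of only the groups compared with DESeq2, and a block with crossed numbers, were added after seeing the data. The fits were tested on simulated data. Same-numbered libraries did not deviate together (r = -0.24 for these groups, -0.36 to 0.22 over 28 pairs).

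The comparison, the 31 gene lists and the naming rule were chosen with earlier results of these data known. The rule names Prmt1, Trp53, Mdm2, Mdm4 and Cdkn1a; the 12 largest rises and falls called in both fits at a mean of 5 CPM or more with no overlap; up to 8 called and 3 uncalled members per list; and 6 genes each way per difference of effects. Some genes the rule allows are not reported here. Promoters are RefSeq's, GRCm38.p6.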

Additional observations from a re-analysis of the deposited data

Results flagged for a closer look

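Genes whose response to PRMT1 siRNA differed between settings were picked out by the test of the difference of effects (edgeR, called in both fits); values are log2 differences ± SE, and none is explained here. With TGF-beta, the effect was more positive on p53 siRNA than on control siRNA for Oas2 (2.26 ± 0.29), Gvin1 (1.96 ± 0.34), Sp100 (1.73 ± 0.25), Oas3 (1.69 ± 0.25), Gbp10 (1.63 ± 0.31) and Gm4951 (1.62 ± 0.24). All 6 genes or their families are known as interferon-inducible. Sp100, a nuclear body protein gene, changed by 1.51 ± 0.18 on p53 siRNA and by -0.22 ± 0.17 on control siRNA, whereas Gvin1, a large interferon-inducible GTPase gene, changed by 0.80 ± 0.24 on p53 siRNA and by -1.16 ± 0.24 on control siRNA. Of 6 fits that each left out 1 library, the call held in 5 of 6 for Oas2, 3 of 6 for Sp100, 2 of 6 for Oas3, 2 of 6 for Gm4951, 1 of 6 for Gvin1 and 1 of 6 for Gbp10. The calls of Gvin1 and Gbp10 were also lost with the replicate block. Reads of Gvin1 and Gbp10 may be shared with near copies.

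The effect was more negative on p53 siRNA than on control siRNA for Saa3 (-4.50 ± 0.46), H19 (-1.86 ± 0.17), Rgs5 (-1.69 ± 0.27), Wnt11 (-1.62 ± 0.24), Mfap4 (-1.62 ± 0.26) and Clu (-1.57 ± 0.28). Saa3, which rose in both, changed by 1.52 ± 0.24 on p53 siRNA and by 6.02 ± 0.35 on control siRNA, and Clu by 1.74 ± 0.19 and 3.31 ± 0.22. H19, an imprinted noncoding RNA gene, had 63.5 and 64.6 CPM in the double-siRNA cells, against 107.0 and 139.95 CPM in the p53-siRNA cells, and changed by -0.95 ± 0.12 on p53 siRNA and by 0.92 ± 0.12 on control siRNA. Wnt11, a ligand of noncanonical Wnt signalling, changed by -0.91 ± 0.17 on p53 siRNA and by 0.72 ± 0.17 on control siRNA, and Mfap4, a microfibril protein gene, by -0.37 ± 0.18 and 1.25 ± 0.19. The calls of Saa3 and H19 held in 6 of 6 fits with 1 library left out, that of Rgs5 in 2 of 6, of Wnt11 in 1 of 6, and of Mfap4 and Clu in 0 of 6.

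On p53 siRNA, the effect was more positive with than without TGF-beta for Trim30d (2.31 ± 0.32), Ak4 (2.18 ± 0.13), Gbp10 (2.17 ± 0.29), Nlrc5 (2.10 ± 0.22), Gvin1 (2.05 ± 0.34) and Abca1 (2.03 ± 0.42). Ak4, a mitochondrial adenylate kinase gene, had 13.4 and 11.9 CPM in the double-siRNA cells, against 4.22 and 4.49 CPM in the p53-siRNA cells with TGF-beta, and changed by 1.54 ± 0.10 with TGF-beta and by -0.64 ± 0.08 without. It was more negative with TGF-beta for Rasl12 (-2.84 ± 0.49), Sod3 (-2.74 ± 0.40), Col7a1 (-2.27 ± 0.24), Fxyd5 (-2.12 ± 0.45), Fam20a (-2.08 ± 0.29) and Dlx5 (-1.89 ± 0.39). Col7a1, the anchoring fibril collagen gene, changed by -1.11 ± 0.15 with TGF-beta and by 1.16 ± 0.19 without; Sod3, the extracellular superoxide dismutase gene, changed by 0.38 ± 0.23 with TGF-beta and by 3.12 ± 0.32 without. Rasl12, Fxyd5, Fam20a and Dlx5 changed by -0.33, -0.58, -0.31 and -0.48 with TGF-beta and by 2.51, 1.53, 1.77 and 1.41 without. The naming limit of 5 CPM covered the libraries with TGF-beta only. Without TGF-beta, Fxyd5 averaged 0.69 CPM after both siRNAs, against 0.24 CPM after p53 siRNA. For Fam20a these means were 1.69 and 0.48 CPM, and for Dlx5 1.17 and 0.44 CPM. The changes of these genes without TGF-beta were thus measured near the detection limit. The calls of Trim30d, Ak4, Gbp10, Nlrc5, Sod3, Col7a1 and Fam20a held in 6 of 6 fits with 1 library left out, those of Gvin1 in 5 of 6, Rasl12 in 4 of 6, Dlx5 in 2 of 6, Abca1 in 1 of 6 and Fxyd5 in 0 of 6.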

How the results depend on the processing

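Main counts, in the order used below, were 1573 genes with 16 libraries, 986 in both fits, 118 for the difference by p53 siRNA and 528 for the difference by TGF-beta. DESeq2 gave 402 for the difference by p53 siRNA, and no low-count filter gave 2908 with 16 libraries, 1051 by p53 siRNA and 1147 by TGF-beta. Length offsets gave 2398, 1512, 296 and 954, and 2399 with 15 libraries. With only the groups compared, edgeR called 0, 0, 0 and 27; there, 1109, 1035 and 1770 genes had an unadjusted p under 0.05 for the first 3 counts, and DESeq2, added after seeing the data, called 97 and 87 for the first 2. Fewer libraries leave less information on the spread in those fits. The replicate block gave 1190, 903, 74 and 378; its numbers do not pair the samples. With the block's numbers crossed, added after seeing the data because r was -0.24, it gave 1748, 1051, 204 and 683. With single libraries left out, the counts ran from 372 to 8238 (8238 without p53_si_TGFB replicate 1, which leaves the deviating library), 359 to 406, 8 to 47, and 131 to 204. The difference by p53 siRNA or by TGF-beta has no value without p53_si_TGFB replicate 1, since both fits need it. RLE factors and the other settings kept all counts within 1.5 times. The median of all genes stayed between -0.02 and 0.02 in every setting.

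Of 154 named genes called in both fits, DESeq2 kept 153, RLE 154, no filter 146, the block 148, length offsets 148, fits without replicates 1 and 2 of the double-siRNA cells 105 and 92, DESeq2 on only the groups compared 42 and edgeR on only those groups 0; none of these reversed. Reversed signs occurred for genes not called: Flna -0.26 with length offsets, Eno1 0.29 and Thbs1 -0.24 with length offsets and 15 libraries, and, over p53_si_TGFB replicates 1 and 2 left out in turn, Eno1 -0.33 and 0.35, Fbxo11 0.25 and -0.27, and Mdm4 0.54 and -0.43; the cause was not tested. With 2 libraries per group, 1 of them deviating, small changes in long transcripts could not be settled.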

Other observations

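Genes of fatty acid synthesis and sterol efflux, chosen after their values were seen, are given beside the cholesterol list. Acyl-chain desaturase genes fell: Fads2 had 54.7 and 59.1 CPM in the double-siRNA cells, against 107.5 and 97.3 CPM in the p53-siRNA cells (-0.85 ± 0.08, adjusted p = 1.02e-04), Fads1 had 187.4 and 191.1 CPM in the double-siRNA cells, against 292.0 and 306.1 CPM in the p53-siRNA cells (-0.66 ± 0.06, adjusted p = 1.82e-04), and Scd2 had 1050.0 and 1102 CPM in the double-siRNA cells, against 1721 and 1327 CPM in the p53-siRNA cells (-0.50 ± 0.11, adjusted p = 0.0152). Acly, which supplies cytosolic acetyl-CoA, Scd1 and Srebf1, the gene of the lipogenic SREBP1, fell by smaller amounts (-0.41 ± 0.11, -0.40 ± 0.11 and -0.32 ± 0.07). Fads1 and Fads2 kept their calls with each single library left out; without replicate 1 of the double-siRNA cells the adjusted p-values of Scd2, Acly, Scd1 and Srebf1 were 0.108, 0.184, 0.201 and 0.122. Fasn, Elovl6 and Acaca passed or neared the threshold with 15 libraries and not with 16 (adjusted p = 0.00935, 1.65e-04 and 0.0515 with 15, 0.108, 0.089 and 0.725 with 16).

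Abca1 and Mylip, which LXR, the oxysterol receptor, activates, did not share 1 direction. Neither call was stable, and LXR activity was not tested. Abca1, the efflux pump, was higher, as given in the report, while Mylip, a ubiquitin ligase gene, had 2.68 and 3.14 CPM in the double-siRNA cells, against 5.35 and 5.57 CPM in the p53-siRNA cells (-0.90 ± 0.19, adjusted p = 0.0154), with adjusted p-values of 0.129 and 0.0759 without replicates 1 and 2 of the double-siRNA cells. Without TGF-beta on p53 siRNA, Abca1 changed by -0.21 ± 0.26, with 33.5 and 40.5 CPM after both siRNAs and 45.6 and 39.9 CPM after p53 siRNA, so its level was higher in untreated than in TGF-beta-treated cells and its rise was measured in the treated cells. With TGF-beta on control siRNA it changed by 1.86 ± 0.34.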
